A study of Rattus norvegicus with 34 samples.

Results

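This account follows 8 transcription regulators of the liver, Cux2, Bcl6, Trim24, Esr1, Hnf4a, Foxa1, Foxa2 and Onecut1, that act with or under the pattern of growth hormone secretion. They were taken by gene symbol from the array annotation, which gave 12 probe sets out of 24946, and for each gene and strain the brightest of its probe sets on average was followed. The strains gave 11984 genes in Brown Norway rats, among them all 8 regulators, and 11943 genes in F344 rats, among them 7, since no value for Esr1 was in the F344 columns used. Testing required a signal above a floor of 32 on 3 or more of the Brown Norway arrays, or on 4 or more of the F344 arrays. That left 6 regulators tested in Brown Norway rats (Cux2 and Esr1 were too dim) and 7 in F344 rats.

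The livers came from 34 male rats, 1 array each. Brown Norway rats, housed singly, were 4, 12 or 24 months old. At each age 3 were given 1 g/kg toluene in corn oil by gavage and killed 4 h later, and another 3 were controls, recorded as untreated. F344 rats were 6, 11, 18 or 24 months old, 4 at each age, with no dosing, and stayed with their supplier until 1 week before necropsy. Nothing in the labels describes an oil-only group for the Brown Norway rats, so the oil and the gavage cannot be told apart from toluene.

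Growth hormone reaches the male rat liver in pulses and the female liver more continuously. The pulses activate the transcription factor STAT5b, which keeps male-specific enzymes such as Cyp2c11 high, while the continuous pattern favours female-specific genes such as Cyp2c12. Bcl6 and Cux2 are the sex-dependent repressors of this system: Bcl6 is the male-predominant factor and competes with STAT5 for its sites, and Cux2 is the female-predominant factor and holds down male genes. Hnf4a, Foxa1, Foxa2 and Onecut1 (also called HNF6) are liver-enriched factors that cooperate with STAT5 at such genes, Trim24 is a cofactor of nuclear receptors with a female-predominant level in liver, and Esr1 is the estrogen receptor alpha.

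Probe set signals are linear intensities, and differences are log2 fold changes from limma, fitted over all genes of a strain, with Benjamini-Hochberg adjustment over all of them and a threshold of adjusted p under 0.05. In Brown Norway rats the array medians were 35.6 to 38.3 and 52.8% to 54.8% of probe sets exceeded the floor, and in F344 rats the medians were 44.9 to 47.1 and the shares 59.5% to 61.1%. GAPDH signal at its 3' end over that at its 5' end, which rises as RNA degrades, was 0.774 to 0.944 on the Brown Norway arrays. On the F344 arrays it was 1.31 to 7.33, and it exceeded 2.5 on 2, 2, 1 and 0 arrays at 6, 11, 18 and 24 months. The 11 measured hepatocyte markers, for example Alb and Apoa1, gave a summed signal of 64405 to 70842 over all 10 groups, and none passed the threshold in any comparison. Whole liver was measured, so fewer cells of a type and less RNA per cell cannot be told apart.

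Cux2 and Trim24 were the regulators that rose with age, and both did so late, in F344 rats of 24 months. Their promoters are shown because these genes moved together. The sequences are from RefSeq on the GRCr8 build, 250 bases upstream of the annotated start and written 5′ to 3′ on the gene's strand. Capitals mark the letters ATCGAT or ATCAAT, which proteins with a cut domain, the Cux and Onecut families, are known to recognise. Cux2 lies at chr12:40179032-40179281 (plus strand) and Trim24 at chr4:67534085-67534334 (plus strand).
Cux2: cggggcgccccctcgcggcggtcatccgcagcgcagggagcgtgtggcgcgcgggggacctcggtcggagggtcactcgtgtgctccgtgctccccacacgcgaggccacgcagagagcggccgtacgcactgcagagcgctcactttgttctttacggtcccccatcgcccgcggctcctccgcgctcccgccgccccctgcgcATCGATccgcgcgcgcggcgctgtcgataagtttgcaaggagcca
Trim24: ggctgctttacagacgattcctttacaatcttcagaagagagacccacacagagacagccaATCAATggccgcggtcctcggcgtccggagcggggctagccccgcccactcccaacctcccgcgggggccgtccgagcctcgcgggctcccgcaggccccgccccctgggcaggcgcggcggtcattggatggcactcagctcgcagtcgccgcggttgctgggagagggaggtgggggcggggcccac

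The match in Cux2 lay 45 to 40 bases and that in Trim24 189 to 184 bases upstream of the start. Searched on both strands, ATCGAT occurred in 0.75% and ATCAAT in 7.1% of 33469 RefSeq promoters of this length. The other letters searched were TTCNNNGAA for STAT5 (7.67% of promoters), TGTTTAC for FOXA (3.21%), CAAAGTCCA for HNF4 (0.338%) and the full estrogen response element (0.0239%), and none of them was in these windows. A match describes letters and is no evidence of binding.

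Promoters of 6 of the 8 regulators were matched, with more than 1 window for Hnf4a, while Foxa1 and Onecut1 were not matched. TTCNNNGAA occurred once among them, in the promoter of Esr1 at chr1:43641845-43642094 (plus strand), which is shown because it alone held the STAT5 letters, in capitals.
Esr1: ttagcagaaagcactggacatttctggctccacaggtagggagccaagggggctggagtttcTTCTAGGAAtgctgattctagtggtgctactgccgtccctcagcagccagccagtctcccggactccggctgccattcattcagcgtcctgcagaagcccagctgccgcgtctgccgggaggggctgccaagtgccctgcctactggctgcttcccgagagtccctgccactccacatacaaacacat

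The Bcl6 window and the second Hnf4a window held none of the letters searched. The first Hnf4a window held ATCAAT 29 to 24 bases, and Foxa2 the same letters on the opposite strand 136 to 131 bases, upstream of the start.

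In F344 livers Cux2 was at or near the floor until 18 months and well above it at 24 months. Its signals were 3.20, 20.7, 1.96 and 14 in the rats of 6 months, and 18.4, 51.5, 25.4 and 18.4 at 11 months. They were 28.5, 25.2, 35.3 and 23.0 at 18 months, and 146, 136, 115 and 160.0 at 24 months. The 4 oldest rats lay above all 12 younger ones, with no overlap. Group means were 9.97 ± 8.98 (SD, n = 4) at 6, 28.4 ± 15.7 at 11, 28 ± 5.39 at 18 and 139 ± 19.0 at 24 months. The 11- and 18-month groups did not differ beyond their spread, and values under the floor have no order.

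Against 6 months, where all 4 arrays were at the floor, Cux2 was at least 4.32-fold higher at 24 months (limma log2 fold change 2.11, SE 0.14, adjusted p = 1.07e-07). Against 18 months, where 3 of 4 arrays were at the floor, it was at least 4.22-fold higher (log2 fold change 2.08, SE 0.14, adjusted p = 1.83e-07). Cux2 exceeded the floor on 6 F344 arrays in all, 4 of them from 24 months, so it met the minimum for testing through that group. A second Cux2 probe set, with values in F344 rats alone, read 88.0, 89.5, 62.9 and 124 at 24 months. It stayed at 19.4 or below on the other 12 arrays, so it too met the minimum for testing only through the 24-month group. Its rise was at least 1.47 on the log2 scale (limma adjusted p = 8.57e-06). With all younger arrays set to the floor, that p is no separate support.

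Trim24 followed the same course at signals that could be measured at every age. The 6-month rats gave 39.3, 42.4, 51.1 and 43.1, and the 11-month rats 53.2, 76.7, 42.0 and 68.5. At 18 months the signals were 75.0, 63.6, 141 and 46.7, and at 24 months 737, 627, 546 and 785. All 4 oldest rats again lay above the 12 younger ones, and the lowest of them was several times the highest younger value, a rat of 18 months. Means were 44.0 ± 5.04 (SD, n = 4), 60.1 ± 15.5, 81.6 ± 41.4 and 674 ± 108 from 6 to 24 months, and the ranges of neighbouring groups overlapped up to 18 months.

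Trim24 was 15.2-fold higher at 24 than at 6 months (limma log2 fold change 3.93, SE 0.26, adjusted p = 9.52e-08) and 8.91-fold higher than at 18 months (log2 fold change 3.15, SE 0.26, adjusted p = 1.70e-06). The step from 6 to 18 months was 0.78 (SE 0.26, adjusted p = 0.201), which did not pass. It passed without the lowest 18-month rat, replicate 4, with a log2 fold change of 1.00 (adjusted p = 0.0479), and with array quality weights at 1.14 (adjusted p = 0.0215). From 6 to 11 months the difference was 0.42 (SE 0.26, adjusted p = 1).

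**Figure D1:**
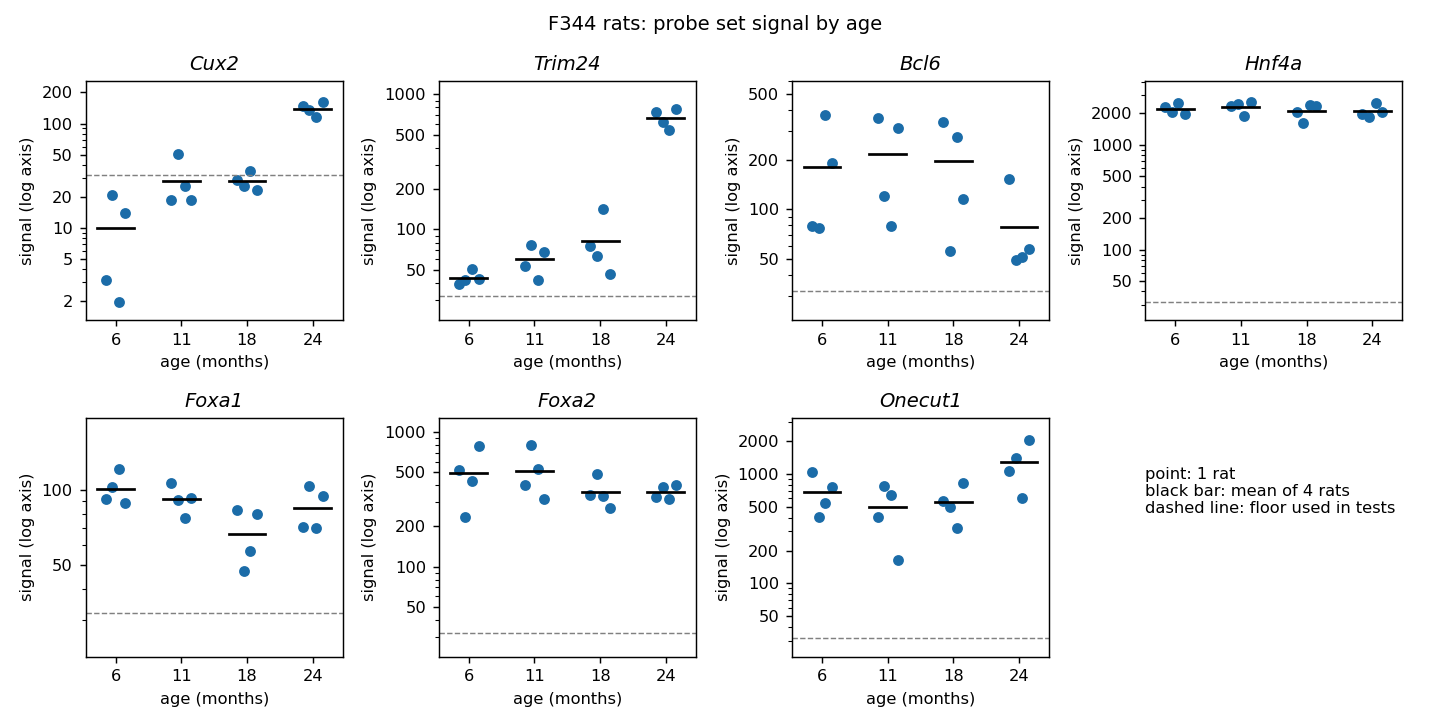
Probe set signal (log axis) of the 7 regulators measured in F344 rats against age in months, with 1 point per rat, a black bar for the mean of 4 rats and a dashed line at the floor of 32. Cux2 and Trim24 rise at 24 months with no overlap (lowest oldest rat 115 and 546), while the other 5 genes overlap between 6 and 24 months. The share of all genes without overlap was not counted, and Cux2 met the minimum for testing only through the 24-month rats.

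Of the 7 regulators tested in F344 rats, 2 passed between 24 and 6 months, both higher, where 7.4% of 9206 genes passed (4.43% higher). Between 24 and 18 months 2 of 7 passed, again both higher, where 1.76% of genes passed (0.88% higher). These comparisons share the arrays of 24 months, and Cux2 met the minimum for testing only through them. Its part in both counts was therefore largely set by the filter, while Trim24 exceeded the floor at every age. The median log2 fold change of the 7 was -0.08 against -0.01 for all genes from 6 to 24 months, and 0.37 against -0.0048 from 18 to 24 months, so the middle of the group lay near that of all genes in the first comparison. None of the 7 passed from 6 to 11 months (0% of genes), from 6 to 18 months (1.08%) or from 11 to 18 months (0.293%). At an unadjusted p under 0.05 in limma there were 0, 2 and 1 regulators in these comparisons, and 357, 1086 and 1025 of all 9206 genes. With the GAPDH ratio as a covariate the changes from 6 to 24 months were 2.13 for Cux2 and 3.86 for Trim24. Without the 5 arrays of high ratio they were 2.11 and 3.96.

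Among the rats of 24 months Cux2 and Trim24 had the same order. Replicate 3 was lowest and replicate 4 highest for Cux2, for its second probe set and for Trim24. Hsd3b5, a male-specific steroid dehydrogenase, read 50.6, 37.9, 71.2 and 13.7 in replicates 1 to 4, highest in replicate 3 and lowest in replicate 4. The middle animals were not reversed, since replicate 1 exceeded replicate 2 for all 3 genes. Cyp2c11, the chief male P450, read 548, 208, 387 and 120.1 there, lowest in replicate 4 as well. A1bg, a female-predominant plasma protein, read 737, 2341, 333 and 3370, lowest in replicate 3 and highest in replicate 4. These orders rest on 4 animals and carry no test.

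Before 24 months the rat with the highest Trim24 signal, replicate 3 of 18 months at 141, also had the highest Cux2 of its group, 35.3. Its Hsd3b5 was 966, the lowest of the 12 rats of 6 to 18 months, whose other values were 1849.5 to 3054. Its Cyp2c12, the female-specific P450, was 1013 and the highest of the 12, and its Prlr, the prolactin receptor, was 469.7, also the highest. This animal was picked out after its values were seen. At 11 months replicate 2 had both the highest Trim24 (76.7) and the highest Cux2 (51.5) of its group. At 6 months the rat with the highest Trim24, replicate 3 at 51.1, had a Cux2 of 1.96, and all 4 Cux2 values were under the floor.

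Likeness was measured as Pearson's r of floored log2 signals over the 16 F344 arrays, with the same pair over the 18 Brown Norway arrays beside it. The arrays share their normalization within a strain, and the 24-month rats stand apart, so a high r can come from that group alone. Nearest to Cux2 were Akr1b7, a female-predominant aldo-keto reductase (r = 0.98), the zinc transporter Slc39a10 (0.97, and -0.06 in Brown Norway rats) and Trim24 (0.96, and 0.95 in Brown Norway rats). Nearest to Trim24 were Akr1b7 (0.98), Cux2 (0.96) and the serpin Serpinb9b (0.95, and 0.84 in Brown Norway rats). Akr1b7 had no value in Brown Norway rats. Slc39a10 was under the floor on every F344 array before 24 months (highest 29.5) and read 38.5 to 42.6 at 24 months. Its r of 0.97 thus only separates the oldest group. In Brown Norway rats Slc39a10 and Cux2 each exceeded the floor on 1 array, so the r of -0.06 measures no likeness. The Brown Norway values of 0.95 and 0.84 rest on 1 animal, replicate 3 of the 24-month controls. It was the only array with Cux2 above the floor, so without it no r with Trim24 exists, and without it Trim24 and Serpinb9b correlated at 0.11 over 17 arrays.

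Without the oldest rats, over 12 F344 arrays, Trim24 correlated at 0.72 with Akr1b7, at 0.45 with Serpinb9b and at 0.40 with Cux2. On these 12 arrays Akr1b7 exceeded the floor on 5, Serpinb9b on 11 and Cux2 on 2. The gene running most opposite to Trim24 was Hsd3b5, named here after its values were seen, with r = -0.99 over 16 F344 arrays. That relation was -0.91 over the 12 rats of 6 to 18 months, all above the floor for both genes. These 12 are among the arrays by which Hsd3b5 was picked. They include replicate 3 of 18 months, the highest of them for Trim24 (141) and the lowest for Hsd3b5 (966). The F344 relation without that rat was not computed. In Brown Norway rats the relation was -0.73 over 18 arrays and -0.37 without replicate 3 of the 24-month controls.

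**Figure D2:**
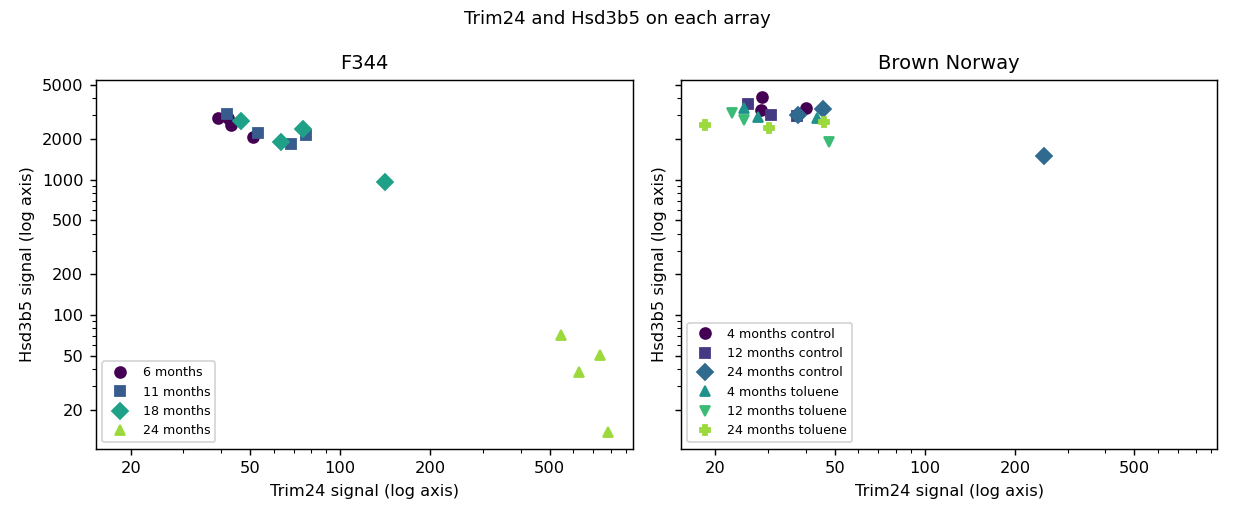
Signal of Hsd3b5 against that of Trim24 on each array, both on log axes, in F344 (left) and Brown Norway rats (right), with symbols and colours for the groups. F344 rats of 24 months form the lower right cluster (Trim24 546 to 785, Hsd3b5 13.7 to 71.2), and 1 Brown Norway control of 24 months, at 249.8 for Trim24, lies apart from its strain.

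In Brown Norway rats Cux2 stayed under the floor on all but 1 of 18 arrays. The controls read 18.4, 14.9 and 3.44 at 4 months, 6.43, 14.5 and 9.19 at 12 months, and 3.08, 11.8 and 63.5 at 24 months. The 9 dosed rats read 1.30 to 21.7. The value of 63.5, from replicate 3 of the 24-month controls, was the one above the floor, and Cux2 was not tested in this strain.

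Trim24 lay above the floor on 8 of 18 Brown Norway arrays. Its signals were 40.2, 28.4 and 28.6 in controls of 4 months, 30.7, 37.6 and 25.7 at 12 months, and 45.7, 37.9 and 249.8 at 24 months. The highest, 249.8, came from the same replicate 3, and the other 17 rats, dosed ones included, read 18.5 to 47.8. Between 24 and 4 months the log2 fold change was 1.13 (SE 0.48, adjusted p = 0.374), with 2 of the 3 young controls at the floor. Without that rat it was 0.27 (SE 0.22, adjusted p = 0.657). In dosed rats of 24 against 4 months it was 0.03 (SE 0.48, adjusted p = 1).

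The same rat, described after its values were seen, differed from its strain in several genes of the sex pattern but not in all. Its Hsd3b5 signal was 1501, the lowest of the 18, where the others read 1889.7 to 4125. Its Cyp3a2, a male-predominant P450, was 1886 and also the lowest, and its Prlr was 368 and its Serpinb9b 71.2, both the highest. Its Cyp2c12 was 38.5, inside the strain's range of 10.7 to 111, and its A1bg was 13.5, under the floor like every other Brown Norway array. Its Cyp2c11 was 2524, above the 2129 of replicate 1 in its own group. With 1 animal there is no test.

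**Figure D3:**
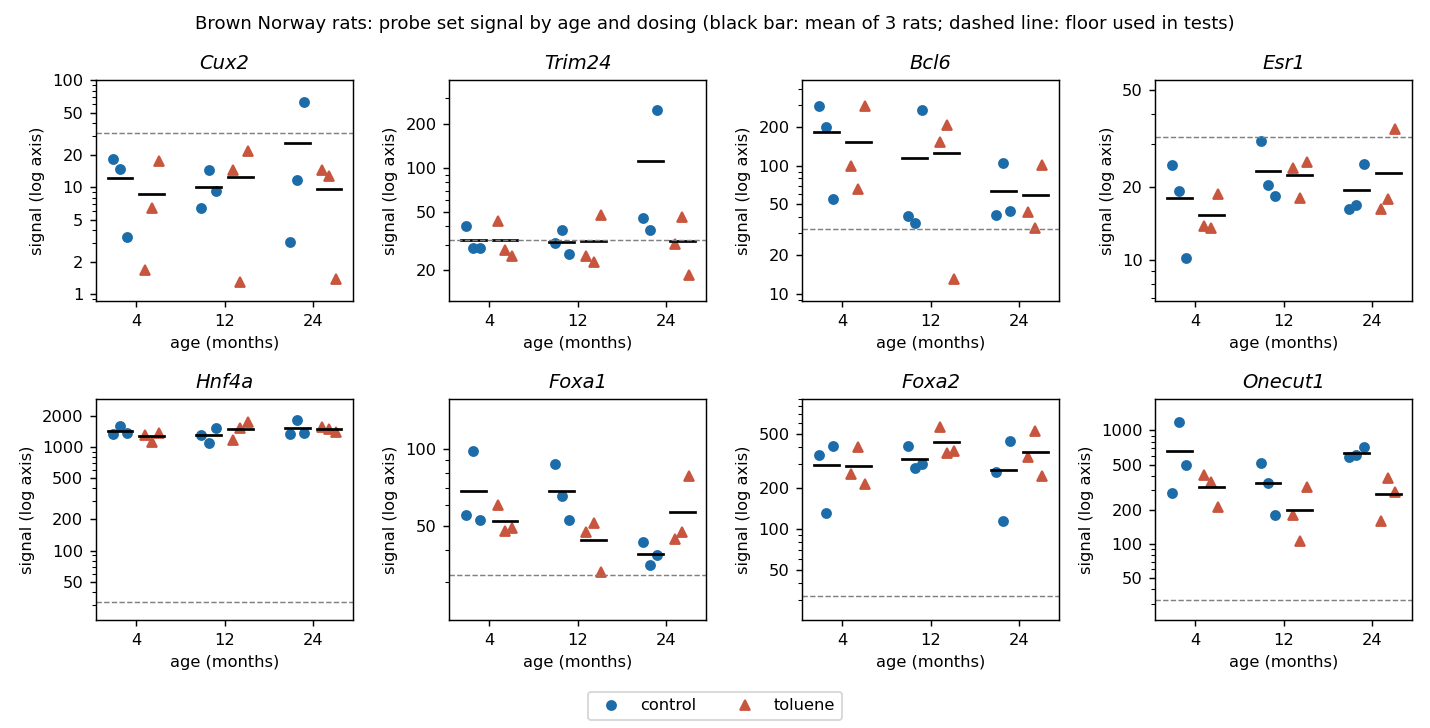
Probe set signal (log axis) of the 8 regulators in Brown Norway rats against age in months, controls as blue circles and toluene-dosed rats as red triangles, with a black bar for the mean of 3 rats and a dashed line at the floor of 32. A single 24-month control stands above the others for Cux2 (63.5) and Trim24 (249.8), and Esr1 lies under the floor on 17 of 18 arrays.

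The change of Trim24 in old age differed between the strains. The F344 change (24 against 6 months, 3.93) exceeded the Brown Norway control change (24 against 4 months, 1.13) by 2.80 on the log2 scale (SE 0.55, 95% interval 1.68 to 3.92, adjusted p = 0.00651, from the separate limma estimates). The strains also differed in the age of the young group, in housing, in GAPDH ratio (0.774 to 0.944 in Brown Norway, 1.31 to 7.33 in F344 rats) and in array medians. These cannot be told apart from strain here. For Trim24, 2 of the 3 young Brown Norway controls were at the floor, which can understate the change in that strain. Of the 7956 genes tested with the same probe set in both strains 0.49% passed, and of the 6 regulators among them Trim24 alone did. Without the Brown Norway rat of high Trim24 the difference was 3.66 (adjusted p = 1.82e-08), and with dosed in place of control rats it was 3.90. For Bcl6, Hnf4a, Foxa1, Foxa2 and Onecut1 the differences were -0.17 to 0.66, with adjusted p of 0.751 to 0.976, and the interval was widest for Bcl6 (-1.94 to 2.5).

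Bcl6, the male-predominant repressor, varied more between rats of one group than between ages. Its F344 signals were 79.2, 76.8, 375 and 191 at 6 months, 356, 121, 79.7 and 311 at 11 months, and 339, 56.1, 275 and 116 at 18 months. At 24 months they were 153, 49.0, 51.7 and 57.2. Of the rats of 24 months 2 lay below every younger rat, the lowest of which read 56.1, and the other 2 lay inside the younger range, so the groups overlapped. Within a group of 6 to 18 months the highest rat was 4.47 to 6.05 times the lowest.

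The mean of Bcl6 at 24 months was 77.8 ± 50.5 (SD, n = 4) against 181 ± 140.2 at 6 and 197 ± 133 at 18 months. The log2 fold change was -1.07 (SE 0.64, 95% interval -2.42 to 0.28, limma adjusted p = 0.375) against 6 months and -1.19 (SE 0.64, adjusted p = 0.489) against 18 months. Neither passed, and the intervals are too wide to tell a fall from no change. In the 12 F344 rats of 6 to 18 months Bcl6 and Trim24 correlated at 0.41, and over all 16 at -0.38.

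Bcl6 in Brown Norway controls read 294, 199 and 55.0 at 4 months, 40.8, 35.7 and 270.4 at 12 months, and 41.5, 104 and 44.4 at 24 months. In dosed rats it read 99.2, 66.4 and 291 at 4 months, 155, 208 and 13.2 at 12 months, and 43.6, 32.6 and 102 at 24 months. Controls and dosed rats alike had their lowest group mean at 24 months, 63.4 ± 35.4 and 59.4 ± 37.3 (SD, n = 3). The difference from 4 months was -1.36 (SE 0.88, limma adjusted p = 0.632) in controls and -1.24 (SE 0.88, adjusted p = 1) in dosed rats, and all these groups overlapped. The lowest value, 13.2, came from replicate 3 of the 12-month dosed rats, whose Hsd3b5 (1889.7) and Cyp3a2 (1906) were lower than in any other dosed rat and whose Prlr (188) was the second highest among dosed rats. This rat was described after its values were seen. Bcl6 and Hsd3b5 correlated at 0.47 over 18 Brown Norway arrays and 0.45 over 16 F344 arrays, but at -0.43 over the 12 F344 rats of 6 to 18 months.

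Esr1, measured in Brown Norway rats, was not detectable above the floor on 17 of 18 arrays. Its signals ranged from 10.2 to 34.4, with the single value above the floor, 34.4, in a dosed rat of 24 months. Group means were 15.3 to 23.2, inside the spread of single rats, so no level or order of groups can be read from this probe set.

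Hnf4a, a nuclear receptor that maintains hepatocyte gene expression, was the steadiest regulator among those well above the floor. In F344 rats its signals were 1973 to 2508 at 6, 1902 to 2533 at 11, 1629 to 2394 at 18 and 1829 to 2519 at 24 months. The log2 fold change from 6 to 24 months was -0.08 (95% interval -0.39 to 0.22, limma adjusted p = 0.820), so a change of more than 0.39 either way lay outside the interval. Brown Norway signals were 1096 to 1813, and the control difference of 24 against 4 months was 0.06 (95% interval -0.29 to 0.42, adjusted p = 0.952).

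That steadiness belongs to 1 of 3 Hnf4a probe sets. The others correlated with it at only 0.09 and 0.17 in Brown Norway and -0.21 and 0.33 in F344 rats, and their changes from 6 to 24 months in F344 rats, 0.22 and -0.18, did not pass either. Log2 signal of the probe set used correlated with the log2 GAPDH ratio at 0.60 over 18 Brown Norway and 0.50 over 16 F344 arrays. The part of RNA integrity in its values was not tested.

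Foxa1, a forkhead factor that opens chromatin for other regulators, was lower in some older groups without passing the threshold. F344 signals were 91.4, 102, 122 and 88.4 at 6 months, 107, 91.2, 77.1 and 92.8 at 11, 82.7, 47, 56.6 and 80.0 at 18, and 70.7, 103, 70.3 and 94.3 at 24 months. All 4 rats of 18 months lay below all 4 of 6 months, and those of 24 months overlapped with both. From 6 to 18 months the log2 fold change was -0.63 (SE 0.19, unadjusted p = 0.00399, limma adjusted p = 0.134), which passed only with array quality weights (adjusted p = 0.0341). From 6 to 24 months it was -0.26 (SE 0.19, adjusted p = 0.478).

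Foxa1 in Brown Norway controls read 55.0, 97.8 and 52.4 at 4 months, 87.4, 65.5 and 52.8 at 12 months, and 43.3, 35.1 and 38.3 at 24 months. The oldest controls lay below all other controls, with log2 fold changes of -0.76 (SE 0.27, limma adjusted p = 0.261) against 4 and -0.79 (SE 0.27, adjusted p = 0.218) against 12 months. Dosed rats did not show this order, with 60.4, 47.5 and 49.0 at 4 months and 44.4, 47.4 and 77.8 at 24 months, a difference of 0.07 (SE 0.27, adjusted p = 1).

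Foxa2, a forkhead factor tied to fasting metabolism, did not change past the threshold in any comparison. Its F344 signals were 519, 235, 435 and 793 at 6 months, 403, 797, 530.0 and 317 at 11, 337, 489, 332 and 270.1 at 18, and 328, 389, 319 and 405 at 24 months. All groups overlapped, and the oldest rats were the most alike, with an SD of 43.3 against 231 at 6 months. The log2 fold change from 6 to 24 months was -0.34 (SE 0.31, 95% interval -1.0 to 0.33, limma adjusted p = 0.609). Brown Norway rats ranged from 115 to 566, and the control difference of 24 against 4 months was -0.17 (SE 0.47, adjusted p = 0.957).

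Onecut1 was highest in F344 rats of 24 months without passing. Its signals were 1046, 409.8, 545 and 758 at 6 months, 406, 781, 647 and 165 at 11, 573, 504, 322 and 839 at 18, and 1074, 1415, 612 and 2057 at 24 months. Of the oldest rats 3 lay above all younger ones, and replicate 3, the oldest rat with the lowest Cux2 and Trim24, lay inside their range. The log2 fold change was 0.86 (SE 0.46, limma adjusted p = 0.314) against 6 and 1.15 (SE 0.46, adjusted p = 0.288) against 18 months. With array quality weights the second was 1.49 and passed (adjusted p = 0.0410).

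A second Onecut1 probe set correlated with the first at 0.71 in F344 and 0.97 in Brown Norway rats. It read 216, 273, 109.7 and 316 at 24 months, and 46.4 to 150.1 at 6 months, a log2 fold change of 1.34 (SE 0.40, limma adjusted p = 0.0519). Against 18 months it gave 1.49 (SE 0.40, adjusted p = 0.0793). Both probe sets had the same order of the 4 oldest rats.

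**Figure D4:**
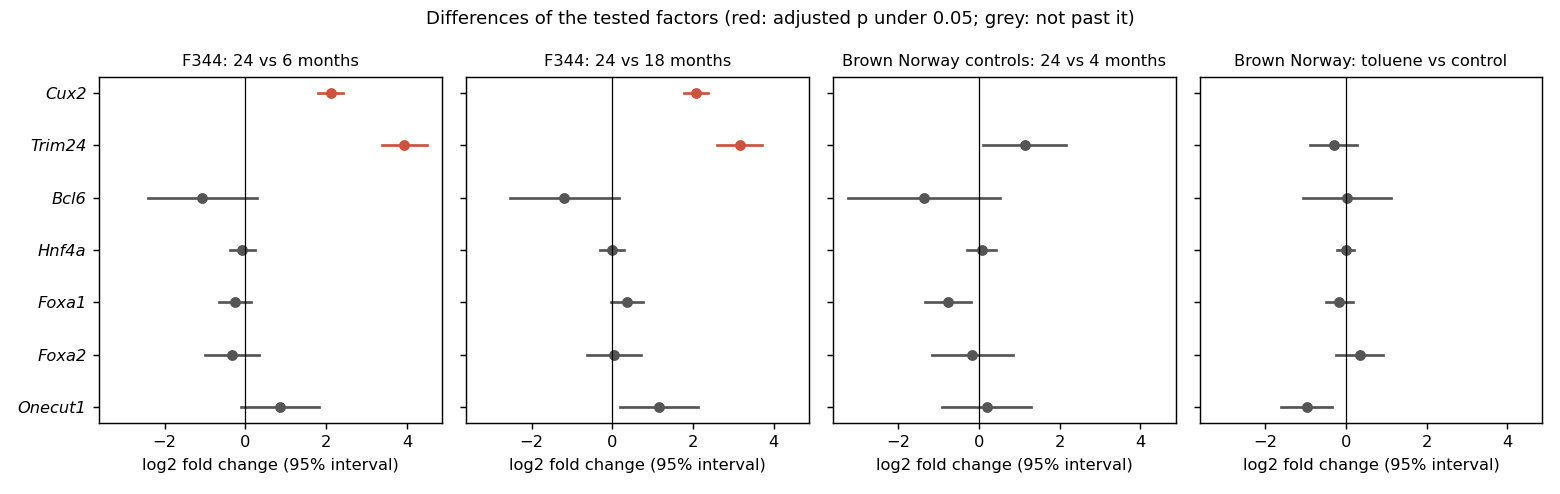
Log2 fold changes with 95% intervals of the tested regulators in F344 rats (24 against 6 and 24 against 18 months), Brown Norway controls (24 against 4 months) and toluene against control over the 3 ages, with red where the adjusted p was under 0.05. Cux2 (2.11 and 2.08) and Trim24 (3.93 and 3.15) in F344 rats are the red points, and Cux2 has none in Brown Norway rats because it was not tested there.

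Likeness named other genes for the remaining regulators, at lower r over the 16 F344 arrays. Bcl6 was nearest to Gps2 (0.76), Scaper (0.75) and Ppme1 (0.72), Hnf4a to Znf768 (0.82), Anapc15 (0.80) and Zbtb48 (0.77), and Foxa1 to Paqr9 (0.85), Ufd1 (0.85) and Elapor1 (0.82). Foxa2 was nearest to Gadd45g (0.81), Arhgap27 (0.78) and LOC100909739 (0.77), and Onecut1 to Wsb1 (0.83), Cenpj (0.77) and Msh3 (0.76). Over the 18 Brown Norway arrays these pairs lay between -0.66 (Foxa2 with Gadd45g) and 0.43 (Foxa1 with Elapor1). None of these 15 pairs was as close there, but a lower r is likely for pairs picked by their high r in F344 rats. Some partners were also mostly at the floor, with Znf768 above it on 1 Brown Norway array and Arhgap27 on 3. A strain difference in likeness was not tested.

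Among Brown Norway controls none of the 6 tested regulators passed for 12 against 4 months, where 0% of 8584 genes passed. None passed for 24 against 4 months (0.245% of genes) or for 24 against 12 months (0.0233%). At an unadjusted p under 0.05 in limma there were 0, 2 and 2 regulators, Trim24 and Foxa1 in each of the latter. Of all 8584 genes 335, 1000 and 1249 were under that limit. In dosed rats of 24 against 4 months 0 regulators passed (0.268% of genes), and 0 had an unadjusted limma p under 0.05 (473 of all genes).

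Toluene changed none of the 6 regulators past the threshold 4 h after dosing, at 4 months (0.0233% of genes passed), 12 months (0.0349%) or 24 months (0.0582%), or over the 3 ages together (0.0699%). The regulator with the lowest p over the ages was Onecut1. Its control signals were 283, 1186 and 498 at 4 months, 518, 347 and 179.8 at 12 months, and 579.6, 603 and 717 at 24 months. Dosed rats gave 404, 350.1 and 210.2, then 179, 106 and 320.0, then 161, 384 and 290.0. Dosed means were lower at every age, and at 24 months the groups did not overlap. The share of all genes that separate there was not counted.

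For Onecut1 the toluene difference was -0.83 (SE 0.52) at 4, -0.80 (SE 0.52) at 12 and -1.27 (SE 0.52, limma adjusted p = 0.381) at 24 months. Over the 3 ages it was -0.97 (SE 0.30, 95% interval -1.60 to -0.33, unadjusted p = 0.0054, adjusted p = 0.644), so it did not pass among all genes. The second Onecut1 probe set gave -0.97 (SE 0.26, adjusted p = 0.408).

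Foxa1 had groups that did not overlap at 12 months, where dosed rats (47.2, 51.3 and 33.1) were lower by 0.64 on the log2 scale (SE 0.27, limma adjusted p = 0.922). At 24 months dosed rats were higher by 0.50 (SE 0.27, adjusted p = 0.510), again with no overlap. How many of all genes separate in this way was not counted, so the lack of overlap is a description only. The difference of the toluene effect at 24 from that at 4 months was 0.83 (SE 0.38, adjusted p = 0.970), in a test where 0.0116% of genes passed. The same difference at 12 from 4 months was -0.31 (SE 0.38, adjusted p = 0.976), where 0% passed. Trim24 was lower by 1.06 in dosed rats of 24 months (SE 0.48, adjusted p = 0.432), and by 0.20 without control replicate 3. Over the 3 ages Bcl6 differed by 0.03 (SE 0.51), Hnf4a by -0.01 (SE 0.10) and Foxa2 by 0.34 (SE 0.27).

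Other liver transcription factors were taken from a list of 66 genes, 54 tested in F344 rats. Between 24 and 6 months 1 rose and 3 fell, and the list's median was -0.17 on the log2 scale against -0.01 for all genes. That is 7.41% of the list, where 7.4% of all genes passed. The riser was Egr1, an immediate early factor, from 80.7 ± 24.5 (SD, n = 4) to 303 ± 191, 3.46-fold (adjusted p = 0.031). The fallers were the clock repressors Nr1d1 (at least 3.70-fold, with 2 of 4 oldest arrays at the floor) and Nr1d2 (2.39-fold), and Tbx3 (at least 2.06-fold, with 3 of 4 at the floor). Between 24 and 18 months 1 rose and 4 fell, among them Nr1d1, Nr1d2, Tef and Dbp, which are all genes of the circadian clock. Those passing were 9.26% of the list, where 1.76% of all genes passed. The 18-month rats also differed from those of 11 months, where Dbp (at least 3.06-fold), Nr1d1 (3.06-fold) and Nr1d2 (2.39-fold) were higher at 18 months. Over the clock list 11 of 14 genes had an unadjusted p under 0.05 in limma in that comparison, against 1025 of all 9206 genes. At the adjusted threshold 0.293% of all genes passed there. In Brown Norway rats 53 were tested, and none passed in controls of 24 against 4 months or with toluene over the 3 ages. Tbx3 fell at least 1.77-fold in dosed rats of 24 against 4 months (limma adjusted p = 0.0184), and Nr0b2, a corepressor of nuclear receptors, was 7.57-fold higher with toluene at 12 months (adjusted p = 0.0370).

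Genes of growth hormone and STAT signalling numbered 28, of which 22 were tested in F344 rats. Between 24 and 6 months 2 rose, Prlr and Stat3, and none fell, with a median of 0.03. They are 9.09% of the list, where 7.4% of all genes passed. Prlr read 42.9, 55.4, 104 and 42.1 at 6 months, 277, 80.4, 42.0 and 125 at 11, 203, 309, 469.7 and 289.8 at 18, and 806, 817, 761 and 1210.2 at 24 months. It had passed by 18 months (5.36-fold against 6 months, limma adjusted p = 0.0143), as had Stat3 (2.07-fold, adjusted p = 0.0433). Whether these courses differ from those of Cux2 and Trim24 was not tested. Between 24 and 18 months none of the 22 passed, and in Brown Norway rats none of 23 passed between 24 and 4 months or with toluene.

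The lists of sex-dependent target genes moved between the same ages as Cux2 and Trim24. Of 20 tested male-dominant genes in F344 rats 14 fell and none rose between 6 and 24 months, with a median of -2.74, and 13 fell between 18 and 24 months, with a median of -1.93. These are 70% and 65% of the list, where 7.4% and 1.76% of all genes passed. This list, like the others, was chosen with earlier results of these data known, so such shares are a description. Of 14 female-dominant genes 7 rose and 3 fell between 6 and 24 months (median 0.49), and 4 rose and 1 fell between 18 and 24 months (median 0.44). Either way, 71.4% and 35.7% of that list passed. Hao2, an oxidase on that list, fell 9.39-fold from 6 to 24 months. Between 6 and 18 months 2 male-dominant genes fell, Inmt and Akr1c3, and 1 female-dominant gene rose, Prlr, which stands on the signalling list too. They are 10% and 7.14% of their lists, where 1.08% of all genes passed. In Brown Norway controls of 24 against 4 months none of 20 male-dominant genes passed (median -0.47), and 1 of 11 female-dominant genes fell, Cyp3a9. There 0.245% of all genes passed.

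Targets of Hnf4a and the Foxa factors outside the sex pattern passed about as often as other genes from 6 to 24 months (8.33% against 7.4% of all genes). Of 24 tested in F344 rats 1 rose, Mttp, the lipid transfer protein of lipoprotein assembly (1.43-fold, limma adjusted p = 0.0251), and 1 fell, Pck1 of gluconeogenesis (1.62-fold, adjusted p = 0.0191), between 6 and 24 months. The list's median was -0.02. Pck1 is also on the list of fasting genes, of which 3 of 15 fell between 6 and 24 months, Klf9 (2.03-fold), Pck1 and Cpt1a (2.56-fold), and 2 between 18 and 24 months, Klf9 and Pck1. Those are 20% and 13.3% of that list, where 7.4% and 1.76% of all genes passed. The part of feeding state in these values was not tested. Mttp and Pck1 also passed between 18 and 24 months, in the same directions (8.33% of the list against 1.76% of all genes), and none of 24 passed in Brown Norway controls of 24 against 4 months or with toluene over the ages.

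Markers of other liver cells moved with age in the same F344 rats. Of 9 Kupffer cell markers 4 were higher at 24 than at 6 months, Cd68, Clec4f, Csf1r and Cd5l, with a summed signal of 4672 to 7079 against 2875 to 4030. None of the 9 passed between 18 and 24 months, where the sums were 4698 to 6538 and 4672 to 7079, and 1 of 5 lymphocyte markers did, Klrd1 (at least 1.47-fold higher, limma adjusted p = 0.0354). Lymphocyte markers passed for 2 of 5 tested (Klrd1 and Cd8a, sums of 410 to 526 against 200 to 282), neutrophil markers for 2 of 2 (S100a8 and S100a9) and stellate markers for 1 of 7 (Dcn). The T cell marker Cd3e and the B cell marker Ms4a1 were at the floor on every F344 array of these ages. So were Cftr of bile duct cells and Csf3r, the third neutrophil marker measured, which was not tested. None of 3 cholangiocyte and 7 endothelial markers passed. Of all genes 7.4% passed between 6 and 24 months and 1.76% between 18 and 24 months. In Brown Norway controls of 24 against 4 months 2 of 9 Kupffer markers rose, C1qb and Cd163, and 1 of 3 lymphocyte markers, Jchain, where 0.245% of all genes passed. The part of other cells in the levels of the regulators was not tested.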

How the data were processed

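Liver RNA of 34 rats was hybridised to Affymetrix rat arrays, per the labels. The authors deposited linear probe set intensity values, and the submitters' processing notes name MAS5 and RMA with no version, role or order. Sorted signals had a coefficient of variation of 1.62% (Brown Norway) and 1.47% (F344) between arrays, so the deposited arrays of a strain share almost the same distribution of signals. The number of arrays limits the precision, and p-values measure the spread between animals.

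Signals under 32 were raised to 32 and log2 was taken. Each gene was represented by its probe set of highest mean. limma 3.58.1 (R 4.3.3) was fitted to all 18 or 16 arrays of a strain with 1 mean per group, and was tested on simulated data. Strain differences came from the separate estimates. Folds against a group at the floor are lower bounds. Overlap between groups is given as a description, and its share over all genes was not counted. The regulators, lists and tests were chosen with earlier results of these data known. The rule for named genes took the 8 regulators, the 3 nearest genes of each tested one, and up to 4 passing genes of smallest p per list. Other names were chosen after their values were seen. Alternatives changed the floor, probe set, scaling, filter, variance model, array weights and GAPDH ratio, and left out arrays in turn. Those of the strain difference and of the difference in toluene effect between ages were added after the data were seen.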

Additional observations from a re-analysis of the deposited data

Results flagged for a closer look

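Bcl6 in F344 rats of 24 months had 1 animal far from the others: replicate 1 read 153.4, the next 57.2 and the lowest 49.0, so the gap took 0.922 of the group's range. Of the 28 groups of 4 examined chance sets about 1 in 20 apart in this way.

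The change of Trim24 in old age differed between the strains, by 2.80 on the log2 scale (F344 24 against 6 months minus Brown Norway controls 24 against 4 months, adjusted p = 0.00651 from limma estimates). It lay between 2.30 and 3.90 under the 24 alternatives that could test it, with a largest adjusted p of 0.0401, and each passed.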

How the results depend on the processing

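Of 292 alternative counts of regulators 282 equalled the main count. For F344 rats of 24 against 6 and 24 against 18 months the count of 2 fell to 1 with a floor 4 times as high or with genes above the median signal, where Cux2 was not tested. For 18 against 6 months the count of 0 became 2 with array quality weights (Trim24 and Foxa1). Leaving out 1 array at a time gave 0 to 1 there, with 1 (Trim24) without replicate 4 of 18 months. The strain difference, 1 in the main setting, became 0 with a floor 4 times as high or with genes above the median signal, where Trim24 was not tested, and 2 with no filter. The other counts lay within 1.5 times the main ones.

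Cux2 rose by 1.47 to 3.57 (24 against 6 months) and 1.47 to 2.32 (24 against 18 months) over 19 alternatives, and Trim24 by 2.38 to 4.03 and 2.35 to 3.46 over 20, all past the threshold. The lowest Cux2 values came from its second probe set. Both Cux2 probe sets met the minimum for testing only through the 24-month arrays. Of 1838 alternative values of single regulators 4 newly passed and 150 of values that never passed changed sign. No paired analysis was possible because the labels give each animal its own number and no numbers shared between groups. Cux2 and Esr1 in Brown Norway rats lie too near the floor for any statement on change, and no analysis was made of other Esr1 probe sets.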
